A study of Arabidopsis thaliana with 6 samples.

Results

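The genes described here encode proteins of the large (60S) subunit of the cytosolic ribosome in Arabidopsis thaliana. The list held 60 loci in 29 protein families. A gene was measured when a probe set of the ATH1 expression array named it and no other gene, and where a gene had several such probe sets the one with the highest mean signal over the 6 arrays would have been taken. This gave 36 genes from 19 families, each with 1 probe set, among 13286 genes named in this way on the array. Of the other 24 loci, 5 were named only by probe sets that name several genes and 19 were not named here; none of the 24 was analysed here. Of the 36 genes, 34 passed the filter on dim probe sets and were tested, among 13648 tested probe sets.

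RNA came from whole young seedlings with open cotyledons, hypocotyl and primary root and no emerged true leaves. Every group was germinated in darkness and then kept in continuous white light, on Murashige and Skoog agar containing sucrose. The 3 groups, each of 2 arrays labelled replicate 1 and 2, were untreated wild type Col-0 (the control), wild type Col-0 on 5 µM norflurazon, and a gun1,gun5 double mutant that also received 5 µM norflurazon. Norflurazon blocks carotenoid synthesis, so that chloroplasts bleach in the light; gun mutants keep nuclear photosynthesis genes expressed when plastids are damaged. The labels name no gun1 or gun5 allele, and an untreated mutant was not analysed here. Whether the arrays of a group stand for separately grown seedlings is not stated, so each p-value reflects only how far these arrays differ, and that may be technical.

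The cytosolic ribosome translates the messages of nuclear genes. Its large subunit holds the centre that joins amino acids, the tunnel through which the new protein leaves, and the stalks that handle tRNA and translation factors. Plants encode each of its proteins in a small family of near-identical genes, and the transcripts are abundant in growing tissue. Chloroplasts carry a separate, bacterial-type ribosome, most of whose proteins are also encoded in the nucleus. The array annotation gives most of the 36 genes by locus only, so the family names used below (RPL4, RPL7 and so on) are background knowledge. Because family members are so alike in sequence, their probe sets may pick up each other's transcripts; whether they did was not tested.

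The arrays had been scaled to a common mean, so every value is relative to the rest of the transcriptome, and in whole seedlings fewer cells of a type and less RNA per cell cannot be told apart. On wild type norflurazon replicate 1 the 25S ribosomal RNA control gave a signal of 2511.1, against 8.2 on replicate 2 and 11.1 to 115.6 on the other 4 arrays. Of 6 ratios of 3′ to 5′ signal for actin, GAPDH and ubiquitin, 2 separated the untreated from the treated arrays: an actin ratio was 4.65 and 4.82 on the control arrays and 7.66 to 8.17 on the 4 norflurazon arrays, and a GAPDH ratio was 0.952 and 1.00 against 1.02 to 1.21. A second actin ratio overlapped, at 2.46 and 2.78 against 1.65 to 3.63. The part of these measures in the results below was not tested. Few tissue markers were named. Of 6 root genes 2 were. PYK10 had signals of 2821 to 3665 on the 6 arrays, with a difference of -0.16 in the treated wild type (adjusted p = 0.446). AT1G12560 had 46.7 and 56.1 in the control, 48.9 and 18.1 in the treated wild type and 51.4 and 49.5 in the treated mutant, with differences of -0.78 on norflurazon (adjusted p = 0.232) and 0.76 in the mutant against the treated wild type (adjusted p = 0.446). Without wild type norflurazon replicate 1, 1 of the 2 root genes was called lower in the first of these comparisons and 1 higher in the second. Their summed signal was 2870.1 to 3711.7. Of 6 genes of the shoot epidermis and stomatal lineage 2 were, FAMA and SPCH. Both belong to the stomatal lineage and lay below the filter, with a summed signal of 31.7 to 55.3. Of 7 genes of dividing cells 1 was, MCM7 (AT4G02060, a DNA replication factor), at 92.3 and 92.0 in the control and 58.4 to 79.7 on norflurazon (adjusted p = 0.24 in the treated wild type). The part of these cell types in the results was not tested.

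The first comparison asked how norflurazon changed these transcripts in the wild type. Of the 34 tested genes 16 rose, 0 fell and 18 did not pass the test, with a median log2 difference of 0.50, or 1.41-fold. Differences ran from 0.18 for an RPL17 gene to 1.44 for an RPL37 gene, and 2 genes reached 2-fold. Over all tested probe sets the median was 0.06, with 9.06% called higher and 9.85% called lower (limma with Benjamini-Hochberg adjustment over all 13648). All 34 tested genes were above 0, as were 54.5% of all tested probe sets. At an unadjusted p under 0.05, 28 of the 34 were higher and 0 lower (18.1% and 16% of all). The 16 calls depended on both control arrays. Without control replicate 1 the count was 0, with 17 at an unadjusted p under 0.05 and 1.06% of all probe sets called higher, and without control replicate 2 it was 1, AT1G15250, while the medians were 0.55 and 0.49.

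Both norflurazon arrays lay above both control arrays for 32 of the 34 genes, against 34.2% of all tested probe sets. Set against the mean of the control arrays, the median of the 34 genes was 0.52 on wild type norflurazon replicate 1 and 0.55 on replicate 2 (log2), and 34 of 34 genes were above that mean on each. On the control arrays themselves the median was 0.03 and -0.03. Between the 2 norflurazon arrays the log2 signals of single genes differed with a standard deviation of 0.285 over the 34 genes, by up to 0.61, and with one of 0.589 over all tested probe sets. These standard deviations were 0.267 and 0.271 between the 2 control arrays, and 0.169 and 0.451 between the 2 mutant arrays. The fit pooled the spread of all groups, so leaving out an array also changed that estimate. Its part in the counts was not tested.

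**Figure D1:**
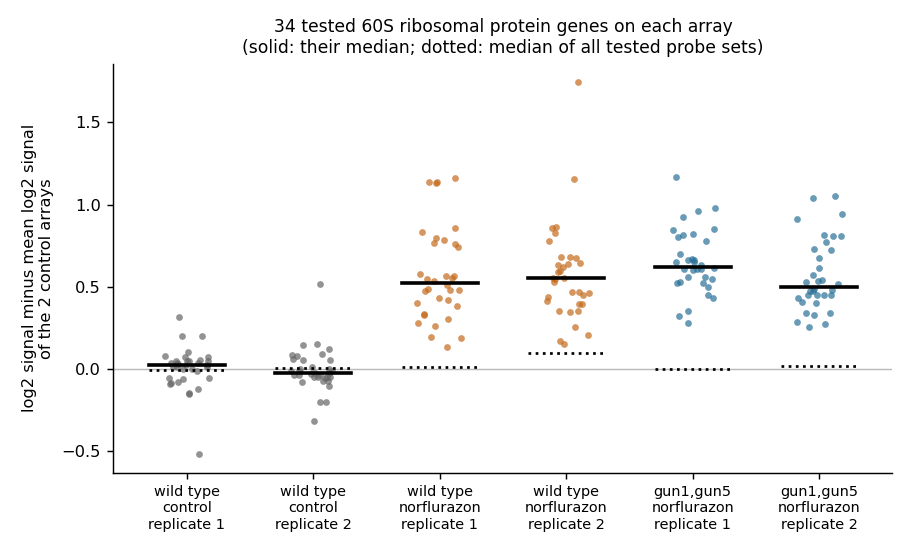
Each point is 1 of the 34 tested 60S genes on 1 array; the vertical axis is its log2 signal minus its mean log2 signal on the 2 control arrays. Solid bars are the medians of the 34 genes (0.03 and -0.03 on the control arrays, 0.50 to 0.62 on the 4 norflurazon arrays) and dotted bars the medians of all tested probe sets, which stay between -0.01 and 0.10.

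Proteins near the exit tunnel were represented by the RPL4, RPL17, RPL19, RPL26 and RPL37 families. The RPL37 gene AT1G15250 had the largest difference: its signals were 44.5 and 91.2 in the control and 140.3 and 213.5 on norflurazon, a log2 difference of 1.44 ± 0.35 (SE; adjusted p = 0.0262). The norflurazon arrays lie above both control arrays, but the control arrays themselves differ by 1.03 (log2). Without control replicate 1 its difference was 0.92 (adjusted p = 0.18), without wild type norflurazon replicate 2 it was 1.14 (adjusted p = 0.0746), and without control replicate 2 it was 1.96.

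The RPL19 gene AT3G16780, whose product also reaches across to the small subunit, had signals of 118.3 and 145.4 in the control and 289.0 and 238.3 on norflurazon, a difference of 1.00 ± 0.19 (SE; adjusted p = 0.0113). The groups do not overlap, and the lower norflurazon array is well clear of the higher control array. RPL4 and RPL17 line the tunnel wall. Of the RPL4 genes, AT3G09630 rose by 0.51 (adjusted p = 0.0356), while AT5G02870 was at 0.33 (adjusted p = 0.143), with signals of 1418 and 1395 in the control and 1604 and 1946 on norflurazon. The groups of AT5G02870 do not overlap, but its 2 norflurazon arrays differ more than the lower of them differs from the control.

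Of the RPL17 genes AT1G67430 rose by 0.49 (adjusted p = 0.0334), from 1284 ± 31.8 to 1800 ± 114 (SD, n = 2). AT1G27400 had the smallest difference of the 34, 0.18 ± 0.14 (SE; adjusted p = 0.396), with signals of 788.5 and 749.8 in the control and 878.8 and 864.7 on norflurazon. Its groups do not overlap either, and its 95% interval of -0.14 to 0.50 leaves out a change of 2-fold. The RPL26 gene AT3G49910, one of the brightest probe sets of the group, was at 0.46 (adjusted p = 0.0518). The RPL15 gene AT4G16720, for a protein embedded in the subunit's core RNA, rose by 0.60 (adjusted p = 0.016), from 1137 ± 42.1 to 1728 ± 119 (SD, n = 2).

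Stalk proteins were represented by the RPL10a and RPL12 families. RPL10a forms the stalk beside the tRNA exit site, and none of its 3 genes passed the test. PGY1 (AT2G27530), known from piggyback mutants that alter leaf shape, was at 0.56 (adjusted p = 0.086), AT5G22440 at 0.45 (adjusted p = 0.161) and AT1G08360 at 0.40 (adjusted p = 0.0905). The 3 differences span 0.16, and in each gene both norflurazon arrays lie above both control arrays. RPL12 sits at the base of the factor-binding stalk. Of its 3 genes AT2G37190 rose by 0.71 (adjusted p = 0.046), and AT5G60670 and AT3G53430 were at 0.38 (adjusted p = 0.292) and 0.37 (adjusted p = 0.0919). AT5G60670 is 1 of the 2 genes whose groups overlap, because its control signals were 670.9 and 431.1 and its norflurazon signals 767.6 and 642.4. The other is the RPL13a gene AT5G48760, with 269.4 and 203.4 against 350.0 and 260.2.

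Most of the remaining families lie on the outer and solvent side of the subunit. The RPL7 gene AT3G13580 had signals of 308.3 and 336.1 in the control and 705.5 and 583.0 on norflurazon, a difference of 0.99 ± 0.17 (SE; adjusted p = 0.00635), the smallest adjusted p of the group. A second RPL7 gene, AT2G44120, rose by 0.69 (adjusted p = 0.0136), and the third, AT2G01250, was at 0.39 (adjusted p = 0.0702). Of the 4 RPL13a genes 3 rose. AT4G13170 had signals of 293.1 and 333.0 in the control and 529.3 and 695.9 on norflurazon, a difference of 0.96 ± 0.18 (SE; adjusted p = 0.011). AT3G07110 rose by 0.62 (adjusted p = 0.0203) and AT3G24830 by 0.58 (adjusted p = 0.0207), and AT5G48760 was at 0.37 (adjusted p = 0.275).

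Of the RPL14 genes, AT2G20450 had signals of 166.0 and 162.7 in the control and 368.0 and 263.9 on norflurazon, a difference of 0.92 ± 0.20 (SE; adjusted p = 0.0182). AT4G27090, with control signals near 1622, was at 0.36 (adjusted p = 0.0759). Both RPL22 genes passed the test: AT3G05560 rose by 0.72 (adjusted p = 0.0121) and AT5G27770 by 0.71 (adjusted p = 0.0249). RPL13 and RPL18 had 1 tested gene each that rose, AT5G23900 by 0.63 and AT5G27850 by 0.54. The genes of RPL6 (AT1G18540, 0.49), RPL9 (AT4G10450, 0.62), RPL27 (AT3G22230, 0.49, and AT4G15000, 0.44) and RPL30 (AT1G77940, 0.30) did not pass the threshold. AT1G77940 had signals of 1377 and 1379 in the control and 1510 and 1903 on norflurazon (adjusted p = 0.211), so that its treated arrays lie apart from each other and above both control arrays.

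Of the 19 families 12 had at least 1 gene that rose. The families had 1 to 4 tested genes each, and one with more tested genes has more chances to hold such a gene. Among the 10 families with 2 or more tested genes, the gap between the lowest and highest difference ran from 0.01 in RPL22 and 0.05 in RPL27 to 0.56 in RPL14, 0.59 in RPL13a and 0.60 in RPL7. These gaps are descriptions, since the difference between family members was not tested; the standard errors of single genes ran from 0.12 to 0.35.

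**Figure D2:**
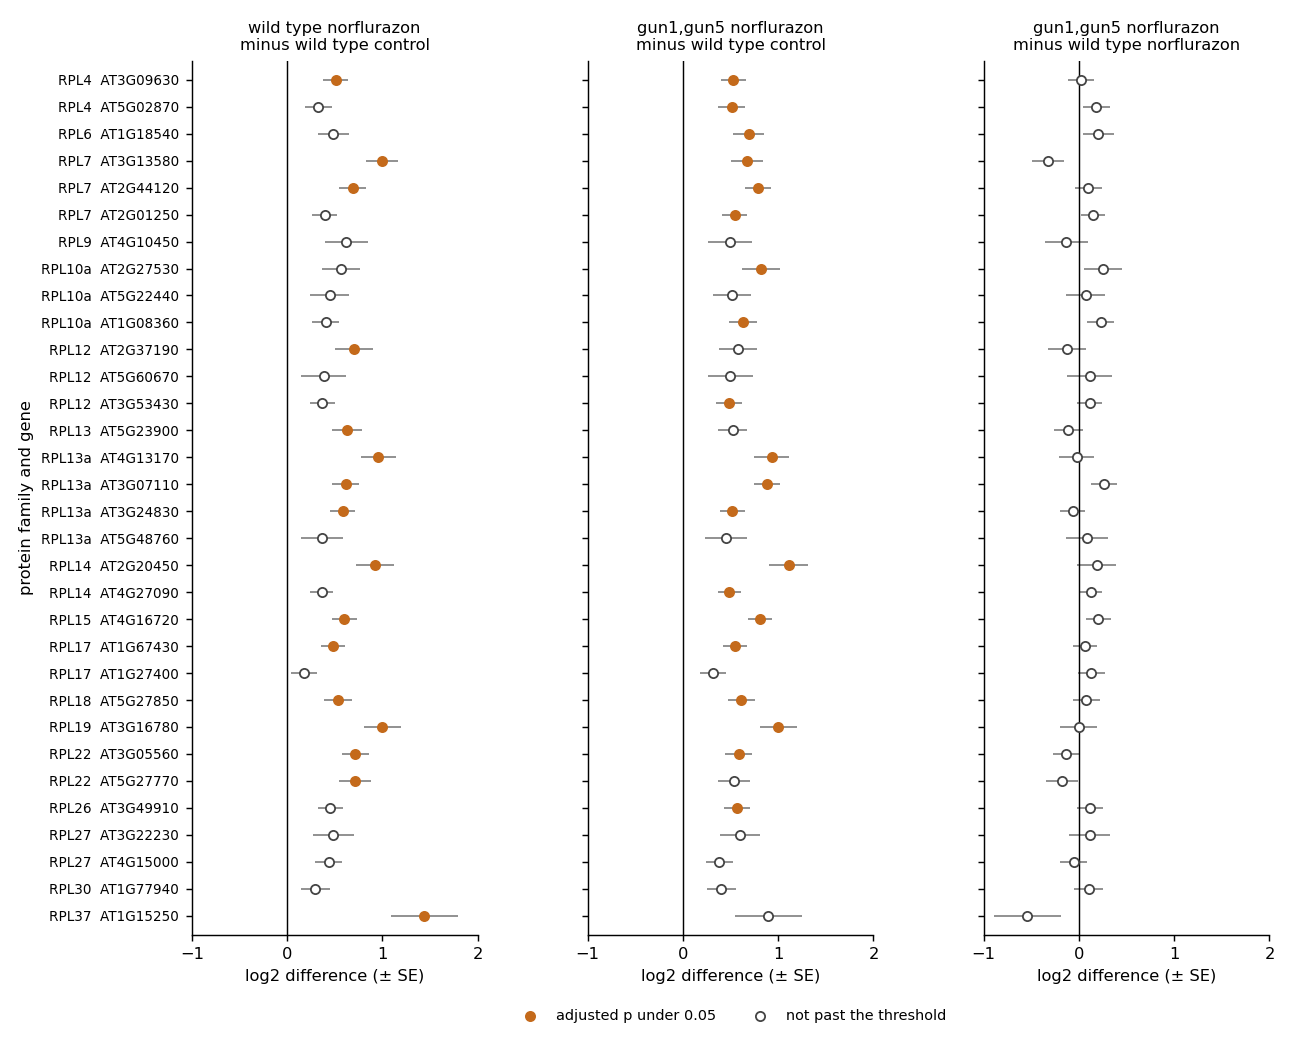
Log2 differences of group means with standard errors for 32 of the 34 tested genes, ordered by protein family, in the 3 comparisons; filled points passed an adjusted p of 0.05. On the left and in the middle the 32 points lie above 0, from 0.18 to 1.44 and from 0.31 to 1.11; on the right they lie on both sides of 0, from -0.54 to 0.26, and none is filled.

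The size of the change went with the brightness of the probe set. Over the 34 genes the difference and the mean control signal had a Spearman rho of -0.58, against -0.18 over all 13648 tested probe sets; these are correlations across genes of the same 4 arrays, and the control signal enters both measures. The 10 genes with a control signal under 500 had a median difference of 0.82, the 12 between 500 and 1000 a median of 0.53, and the 12 at 1000 or more a median of 0.42. A probe set's brightness also depends on its probes, so this order is not one of transcript levels. Bright probe sets as a whole went the other way: of 1199 with a control signal of 500 or more the median difference was -0.19, with 8.01% called higher and 33% called lower, and of the 24 genes of the 60S group among them 10 rose.

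**Figure D3:**
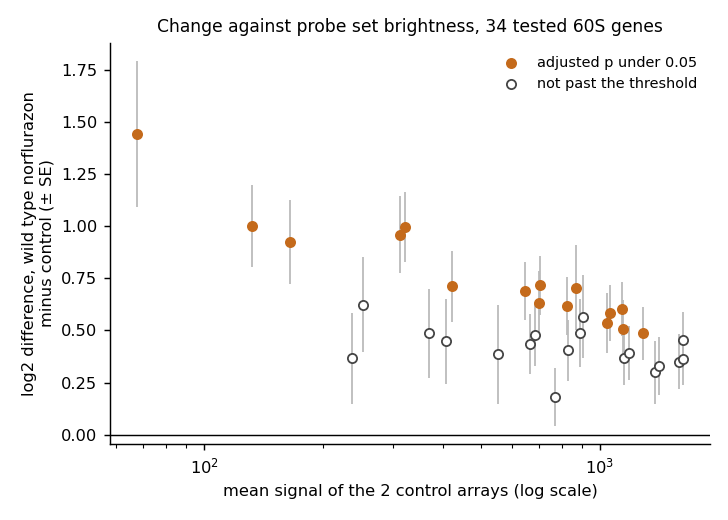
Log2 difference (wild type norflurazon minus control, with its standard error) of the 34 tested genes against the mean signal of the 2 control arrays on a log axis; filled points passed an adjusted p of 0.05. The 5 genes with the largest differences, 0.92 to 1.44, have control signals between 67.8 and 322, and among the 12 genes with a control signal of 1000 or more the largest difference is 0.60.

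The 2 measured genes below the filter were dim on every array. The RPL13 gene AT3G48960 had signals of 10.4 and 11.3 in the control, 16.4 and 9.4 in the treated wild type and 20.2 and 15.0 in the treated mutant. The RPL30 gene AT1G36240 lay between 20.2 and 25.3 on all 6 arrays. The filter stood at a signal of 27.6, and the dimmest tested gene was AT1G15250, with group means of 67.8 to 176.9.

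The second comparison set the treated mutant against the treated wild type. For the 60S genes no difference passed the test: 0 of 34 were called by limma with Benjamini-Hochberg adjustment, against 2.95% of all tested probe sets (1.83% higher and 1.11% lower). At an unadjusted p under 0.05, 0 of 34 were higher and 0 lower, against 7.85% and 8.37% of all. The median difference was 0.08, and -0.04 over all tested probe sets. Of the 34 genes 23 were above 0, as were 45.3% of all tested probe sets; the count was 18 under quantile normalization and 26 with array medians set equal. The mutant arrays lay above both wild type arrays for 8 genes (17.7% of all tested probe sets did) and below both for 3 (23.1%).

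The 95% interval of 33 of the 34 genes lay within -1 to 1, so that a difference of 2-fold lay outside it. The exception was the RPL37 gene AT1G15250, with signals of 140.3 and 213.5 in the wild type and 125.5 and 112.3 in the mutant, a difference of -0.54 and an interval of -1.35 to 0.27. Next lowest was the RPL7 gene AT3G13580, at 705.5 and 583.0 in the wild type and 511.4 and 514.1 in the mutant (difference -0.32, adjusted p = 0.405). For both genes the mutant arrays are below both wild type arrays and above both control arrays. The RPL22 gene AT5G27770 was at -0.18 (adjusted p = 0.708), with mutant signals of 667.2 and 560.2 that overlap with 753.1 and 634.9 in the wild type.

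At the other end, the RPL13a gene AT3G07110 had signals of 1211 and 1323 in the wild type and 1488 and 1554 in the mutant (difference 0.26, adjusted p = 0.417). PGY1 (AT2G27530) had 1111 and 1601 in the wild type and 1595 and 1582 in the mutant (difference 0.25, adjusted p = 0.627), and its groups overlap. Without wild type norflurazon replicate 1 the PGY1 difference was -0.011, and without replicate 2 it was 0.52 (adjusted p = 0.13). The RPL10a gene AT1G08360 was at 0.23 (adjusted p = 0.525), with 1010 and 1197 in the wild type and 1305 and 1270 in the mutant. The RPL15 gene AT4G16720 was at 0.20 (adjusted p = 0.518), with 1643 and 1812 against 1985 and 1991, and the RPL6 gene AT1G18540 also at 0.20 (adjusted p = 0.638), with 1117 and 1391 against 1353 and 1518. AT1G18540 is the one of these last 3 genes whose groups overlap.

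**Figure D4:**
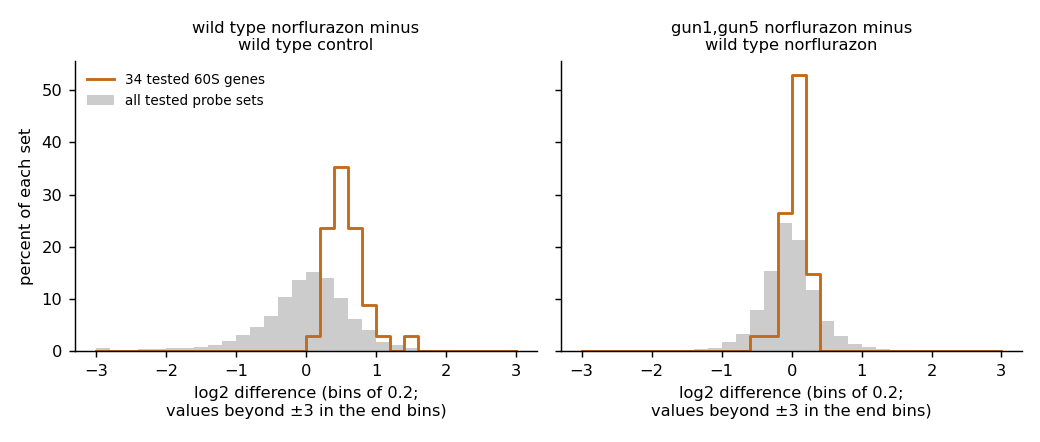
Share of genes in bins of 0.2 log2 units, for all 13648 tested probe sets (bars) and the 34 tested 60S genes (line). In the treated against the untreated wild type the 34 genes lie to the right of 0 around a median of 0.50, while the median of all probe sets is 0.06; in the mutant against the wild type on norflurazon they centre on 0.08.

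The treated mutant was also set against the untreated wild type, a comparison in which genotype and herbicide differ together and cannot be told apart, and which shares the control arrays with the first. Here 21 of the 34 genes were called higher and 0 lower, against 8.55% and 10.3% of all tested probe sets. With array medians set equal, those 1167 higher and 1404 lower calls over all probe sets became 1688 and 1158. At an unadjusted p under 0.05, 30 of the 34 were higher and 0 lower (17.2% and 17.2% of all). The median difference was 0.55, and 0.01 over all tested probe sets, of which 50.7% were above 0. Both mutant arrays lay above both control arrays for 34 of 34 genes (34.6% of all). Without control replicate 1 or 2 the median was 0.59 and 0.51, and without mutant replicate 1 or 2 it was 0.50 and 0.62. Few or none of the 21 calls remained in these fits, and fewer of all tested probe sets were called as well.

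The largest difference in that comparison was that of the RPL14 gene AT2G20450, whose mutant signals were 369.2 and 340.8 against 166.0 and 162.7 in the control, at 1.11 ± 0.20 (SE; adjusted p = 0.0097). The RPL19 gene AT3G16780 had 255.5 and 269.3 against 118.3 and 145.4, at 1.00 (adjusted p = 0.0123), and the RPL13a gene AT4G13170 592.8 and 599.9 against 293.1 and 333.0, at 0.93 (adjusted p = 0.0131). In these 3 genes every mutant array is well above both control arrays. AT1G15250 was at 0.90 and did not pass (adjusted p = 0.113), with 125.5 and 112.3 in the mutant against 44.5 and 91.2. AT3G07110, with 1488 and 1554 against 781.1 and 872.7, was at 0.88 (adjusted p = 0.00601), the smallest adjusted p of the group here. Lowest was again AT1G27400 at 0.31 (adjusted p = 0.154), with 982.2 and 927.9 in the mutant. AT4G15000 was at 0.38 (adjusted p = 0.105), with 895.7 and 832.0 against 638.4 and 688.7. In both genes the mutant arrays still lie above both control arrays.

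Other genes of the translation apparatus are given as counts from lists written by hand. In the treated wild type 13 of 33 tested genes for other 60S and stalk proteins rose (9.06% of all tested probe sets did), led by the RPL31 genes AT4G26230 at 0.88 and AT2G19740 at 0.84, with a median of 0.47. Of 42 genes for 40S proteins 18 rose, with a median of 0.50, among them the RPS25 gene AT4G39200 at 1.66 and the RPS19 gene AT3G02080 at 0.96. Of 17 genes for ribosome biogenesis 11 rose, with a median of 0.90. BMS1 (AT1G06720), a GTPase needed to build the small subunit in yeast, went from 28.0 and 29.9 to 112.5 and 140.5, a difference of 2.12 (adjusted p = 0.0008), and AT1G52930, of the BRX1 family that acts in large subunit assembly in yeast, rose by 1.52. Of 9 genes for translation factors 2 rose, AT4G20980 for a subunit of initiation factor eIF3 by 0.86 and AT2G40290 for a subunit of eIF2 by 0.73, with a median of 0.62. Of 2 genes for TOR pathway proteins, RAPTOR1 was at 0.28 (adjusted p = 0.383) and RAPTOR2 at -0.27 (adjusted p = 0.501). In these 5 lists 0 members fell by the same limma test, and 0 were lower at an unadjusted p under 0.05.

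Of 10 tested nuclear genes for plastid ribosomal proteins 7 fell, 0 rose and 3 did not pass the test (9.85% of all tested probe sets were called lower), with 0 higher at an unadjusted p under 0.05 and a median of -0.75. AT5G24490 was at -1.86 and AT1G29070, for a plastid L34 protein, went from 1491 and 1489 to 731.9 and 729.4, at -1.03. In the mutant against the wild type on norflurazon, 2 of these 10 were higher (1.83% of all tested probe sets were), AT1G29070 by 0.85 and AT3G54210 by 0.71. At an unadjusted p under 0.05 by limma, 8 of the 10 were higher and 0 lower (7.85% and 8.37% of all). The smallest difference was 0.25. The median was 0.58, against a median of 0.08 for the 34 cytosolic 60S genes. The difference between these lists was not tested. Without control replicate 1 or 2 the medians in the treated wild type were 0.50 and 0.50 for other 60S and stalk proteins and 0.53 and 0.43 for 40S proteins. They were 0.92 and 0.84 for ribosome biogenesis, 0.54 and 0.69 for translation factors, and -0.68 and -0.85 for plastid ribosomal proteins. In each of these lists fewer genes were called without either control array, and fewer of all tested probe sets were called as well. The count for other 60S and stalk proteins also fell without wild type norflurazon replicate 1. That for translation factors rose without wild type norflurazon replicate 2 and fell without either mutant array. The 2 plastid ribosomal genes called higher in the mutant became 0 without either control array or either mutant array, and 4 without wild type norflurazon replicate 1; they were also 0 with no filter, with no intensity trend and with only those 2 groups fitted, and 1 under quantile normalization. With no filter and with no intensity trend the counts in the treated wild type were 3 and 5 for other 60S and stalk proteins, 11 and 11 for 40S proteins, and 1 and 1 for translation factors. Of all tested probe sets 4.26% and 7.9% were called higher in these fits.

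**Figure D5:**
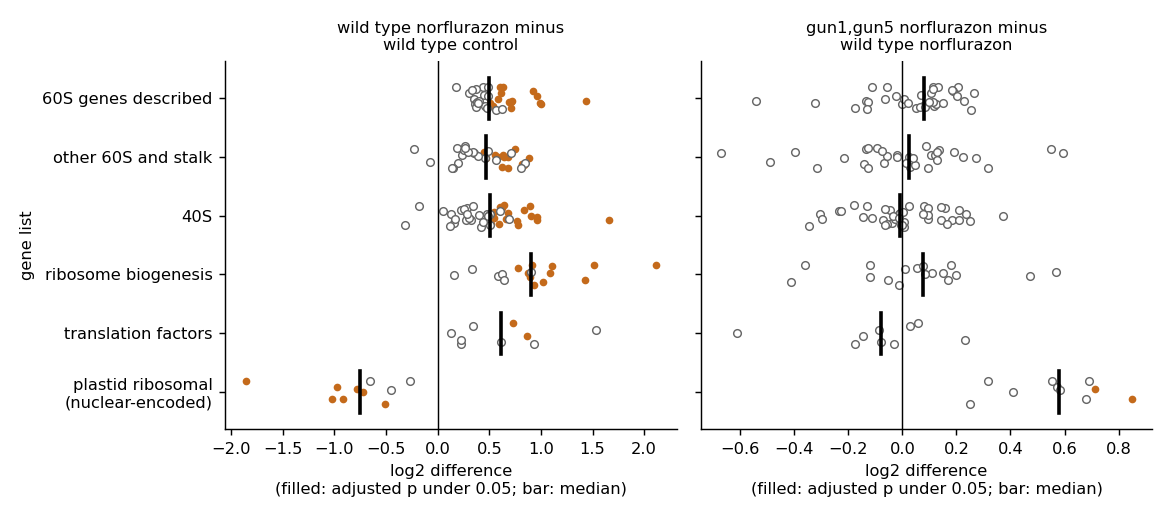
Log2 differences of single genes in 6 gene lists; filled points passed an adjusted p of 0.05 and bars are medians. In the treated wild type (left) the 5 cytosolic lists have medians from 0.47 to 0.90 and the plastid ribosomal list -0.75; in the mutant against the wild type on norflurazon (right) the medians are -0.08 to 0.08 and 0.58.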

How the data were processed

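The authors deposited 1 linear intensity per probe set and array. The submitters' processing notes name MAS5 without a version. After 2% was trimmed at both ends, the mean was 100.01 on every array. From these, log2(signal + 0.05) was computed, 0.05 being 0.5 times the smallest positive signal; for dim genes differences depend on it. After 64 control probe sets were left out, the 13648 of 22810 probe sets at or above the 40th percentile of mean log2 signal were fitted with limma 3.58.1 in R 4.3.3 (1 mean per group over all 6 arrays, eBayes with an intensity trend, 3 residual and 4.89 prior degrees of freedom). Two-sided p-values were Benjamini-Hochberg adjusted over all of these, and calls were made under 0.05. The number of arrays limits the precision.

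Gene names came from GEO's platform annotation, updated with RefSeq (TAIR10.1): 13513 named 1 gene, 503 several and 8794 none here. The genes and lists were chosen with earlier results of these data known, and 6 entries that did not belong were taken out of the lists, 1 of them after its values were seen. Signals on the arrays compared are printed for the 5 largest and 3 smallest differences of each comparison, and genes of other lists by the 2 largest changes past the threshold. For 2 of the 34 genes single values are not reported here; they are included in all counts and medians. No sequence is printed. On data simulated for the norflurazon comparison in the wild type (13648 probe sets), limma called 36 of 50 with a true log2 change of 2. It called 6 of 50 with 1, 4 of 46 with -1, 0 of 50 with 0.5, and 0 of 13452 unchanged ones. Far fewer probe sets were changed there than the 2581 called in the real comparison, so the Benjamini-Hochberg cut-off was stricter. These shares therefore do not give the power of the real comparison. The pass mark set at first for this check (40 of 50 at a change of 2) was not met and was lowered. Alternatives tried were the scaling, pseudocount, filter, fit on 2 groups, no intensity trend, the replicate number as a block and leaving out each array.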

Additional observations from a re-analysis of the deposited data

Results flagged for a closer look

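The 25S ribosomal RNA control, which entered no comparison, was brighter on some treated arrays than on both control arrays (15.2 and 11.1). The highest signal was 2511.1 among the wild type norflurazon arrays and 115.6 among the mutant arrays; the second array of each group had 8.2 and 21. Its part in the 60S results was not tested. The medians of the 34 genes on those 4 arrays were 0.52, 0.55, 0.62 and 0.50 (log2 over the control mean). With 2 arrays per group, no group was large enough for a test of single outlying arrays.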

How the results depend on the processing

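Under 15 alternatives for each comparison, the median difference of the 60S genes stayed above 0, and all tested members were above 0 in both comparisons with the untreated wild type. The counts of called genes moved more. For norflurazon in the wild type (16 genes), 8 were called with no filter on dim probe sets and 8 with no intensity trend; leaving out 1 array gave 0 to 18, and a median of 0.49 to 0.55. The share of all probe sets called higher was 4.26% with no filter and 7.9% with no intensity trend, against 9.06% in the fit used above. Quantile normalization gave a median of 0.65 with 24 genes called, and 9.7% of all probe sets called higher. For the treated mutant against the untreated wild type (21 genes), the counts were 7 with no filter and 7 with no intensity trend, and 0 to 26 without 1 array, with a median of 0.50 to 0.62; with array medians set equal the median was 0.66. For the mutant against the wild type on norflurazon (0 genes), 0 were called under each alternative; the median was 0.14 with array medians set equal and 0.00273 under quantile normalization. The difference of PGY1 (AT2G27530) there ran from -0.011 to 0.515 without 1 array. With array medians set equal, the median of all probe sets moved from 0.01 to 0.12 for the treated mutant against the control. With that scaling 27 of the 60S genes were called higher, as were 12.4% of all probe sets. In the same comparison this share was 4% with no filter and 7.56% with no intensity trend, against 8.55% in the fit used above. Where 1 array of a pair was left out, the lone array was assumed to vary like the other groups. Over all probe sets the calls for norflurazon (2581) were 603 and 677 without control replicate 1 and 2. For the mutant against the wild type (402) they were 235 with no filter, 109 with only those 2 groups fitted and 81 to 775 without 1 array; for the treated mutant against the control (2571) they were 3968 with only those 2 groups fitted and 388 to 4000 without 1 array. The cause of these shifts was not tested.

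With the replicate block the counts were 20, 0 and 24 in the 3 comparisons. Of all tested probe sets 11.9%, 2.59% and 11.2% were called higher with it, against 9.06%, 1.83% and 8.55% without it. The labels do not say that a number marks a shared batch. For translation factors in the treated wild type (2 higher) the count was 5 with the block, 4 with array medians set equal and 1 with only the 2 groups fitted. Of all tested probe sets 11.9%, 10.8% and 7.34% were called higher in these fits. Deviations of same-numbered arrays correlated over all tested probe sets at 0.45 between the 2 norflurazon groups and at 0.07 and 0.08 between the control and the treated wild type and mutant; over the 34 genes these values were 0.41, 0.53 and 0.22. Averaging probe sets of a gene, or using only those without a suffix for shared sequence, could change nothing for the members, since each has 1 probe set and none carries such a suffix. Signal over background could not be set, as no detection calls were used.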
